A study of Mus musculus with 3 samples.

Results

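The insulin-like growth factor (IGF) axis was followed through 10 genes: the ligands Igf1 and Igf2, the growth hormone receptor Ghr, the acid-labile subunit Igfals, and the binding protein genes Igfbp1, Igfbp2, Igfbp3, Igfbp4, Igfbp5 and Igfbp7. They were taken by gene symbol, not by level or response, from 37620 Ensembl identifiers, and all 10 were found. The libraries came from primary hepatocytes of C57BL/6 mice at passage 1, 2 of them from cells given tauroursodeoxycholic acid (TUDCA, a taurine-conjugated bile acid also used as a chemical chaperone) and 1 from cells given the solvent DMSO. The labels give TUDCA as 100 mM for 24 h, a unit that was not checked against another source, and give no time for DMSO, so an effect of time and one of TUDCA cannot be told apart. All cultures were plated on gelatin in medium with serum and insulin, per the labels' protocols. The series speaks of 2 independent experiments but ties no library to either. The p-values set each difference from DMSO against the spread between these TUDCA libraries, pooled over genes, and that spread may be only technical.

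IGF1 is the circulating mediator of much of growth hormone's action, and the liver is its main source in blood. Growth hormone binds GHR on hepatocytes, and the kinase JAK2 and the factor STAT5B then switch on Igf1 and Igfals. Secreted IGFs travel bound to binding proteins, mostly in a ternary complex of IGF, IGFBP3 and the acid-labile subunit. Igfbp1 is the fast-reacting member of the family in hepatocytes: insulin represses it by driving the transcription factor FOXO1 out of the nucleus, and fasting and cell stress raise it.

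The Igfbp1 promoter carries the element through which insulin is known to act, and it is shown because Igfbp1 was the only one of the 10 genes called different with TUDCA. These are the 250 bases before its annotated start at chr11:7197537-7197786 on the plus strand, from RefSeq on build GRCm38.p6. The sources used here name no build for the deposited values. Capitals mark CAAAACA, the core of the insulin response element, and ATTAAC, the reverse complement of GTTAAT, the half-site of the liver factor HNF1.
Igfbp1: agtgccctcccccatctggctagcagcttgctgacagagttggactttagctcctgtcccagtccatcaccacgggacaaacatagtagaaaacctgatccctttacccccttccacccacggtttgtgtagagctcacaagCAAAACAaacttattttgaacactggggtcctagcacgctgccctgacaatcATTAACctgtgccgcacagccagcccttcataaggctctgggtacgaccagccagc
In Igfbp1 the CAAAACA match began 108 bases before the start. A search of both strands of 300-base windows, from 250 bases before to 50 after each start, found CAAAACA in 1 of the 17 windows of the 10 genes, against 6.28% of all 32851 windows. GTTAAT was likewise in 1 of the 17 windows, that of Igfbp1, against 7.10% of all windows. The gluconeogenic gene G6pc, described below beside Igfbp1, held CAAAACA on the other strand, written TGTTTTG, in these bases at chr11:101367527-101367563 on the plus strand. The window of Pck1, the other gluconeogenic gene described there, held no CAAAACA.
G6pc: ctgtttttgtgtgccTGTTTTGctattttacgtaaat
Igfals is shown because it is a textbook STAT5 target. TTCNNNGAA, the STAT5 recognition motif, was in 2 of its 3 windows and in no other window of the 10 genes, against 8.30% of all windows. The match nearer to a start, 58 bases before it, lies at chr17:24878158-24878196 on the plus strand.
Igfals: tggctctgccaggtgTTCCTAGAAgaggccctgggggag
These matches are letters in a window, and binding was not measured.

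Levels are given in RPKM, reads scaled for gene length and library depth, which can be compared between genes. Library totals behind them were inferred from the commonest RPKM ratios between libraries, as the smallest whole numbers that fit. They were 9757547 and 10575699 reads with TUDCA and 10774289 reads with DMSO. Of 10 hepatocyte markers 9 were matched and all 9 were detected: Alb, the highest, stood at 7177 and 6111 RPKM with TUDCA and at 5771 RPKM with DMSO. Cps1, the lowest, stood at 5.79 and 6.08 RPKM with TUDCA and at 2.62 RPKM with DMSO. Both TUDCA libraries were above DMSO for 7 of the 9 and below it for 2, against 40.5% and 30.4% of all genes tested. Markers of other liver cells were low for stellate, endothelial and mesothelial cells and higher for Kupffer cells and cholangiocytes. Sums were 14.4 and 12.4 RPKM with TUDCA and 15.9 RPKM with DMSO over 12 stellate cell and fibroblast genes, and 25.7 and 24.8 RPKM with TUDCA and 30.0 RPKM with DMSO over 11 endothelial genes. The 12 Kupffer cell and macrophage genes summed to 324.5 and 342.4 RPKM with TUDCA and 356.3 RPKM with DMSO. The highest of them, Cd68, alone gave 154.3 and 169.4 RPKM with TUDCA and 170.4 RPKM with DMSO. No member of these 3 lists was at 0 in all libraries. Of 8 cholangiocyte markers, Cftr was at 0 and the sum was 821.4 and 647.9 RPKM with TUDCA and 437.1 RPKM with DMSO, most of it Spp1. Spp1, which encodes osteopontin, had 767.5 and 578.2 RPKM with TUDCA and 387.5 RPKM with DMSO and was called higher (log2 fold change 0.78 ± 0.20, limma adjusted p = 0.00464). All 4 cholangiocyte markers tested had a positive fold change, and their part in the rise of Igfbp1 was not tested. The 6 mesothelial markers summed to under 1 RPKM in every library, with Upk1b at 0. In bulk cultures, fewer cells of a type and less RNA per cell cannot be told apart.

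Among the ligands, Igf1 was well expressed and Igf2 was close to silent. Igf1 had 76.7 and 81.7 RPKM in the TUDCA libraries and 70.5 RPKM in the DMSO library. The TUDCA values lay above DMSO, as in 40.5% of all genes tested. The gap between the TUDCA libraries was 0.09 on the log2(RPKM + 1) scale, and their differences from DMSO were 0.12 and 0.21. The limma fit did not call Igf1 (log2 fold change 0.17 ± 0.22 SE, adjusted p = 0.900). Igf2, the fetal ligand that the liver turns off after birth in mice, was listed at 0 in both TUDCA libraries and at 0.0756 RPKM, or 2 reads as the smallest whole number, in DMSO. A count of 0 allows up to 3 reads, which would be 0.125 and 0.116 RPKM in the TUDCA libraries over the same length, so no difference was detectable at this depth. Annotated exons of the antisense gene Igf2os overlap Igf2 by 98 bases, and no source used here says whether reads were counted by strand.

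**Figure D1:**
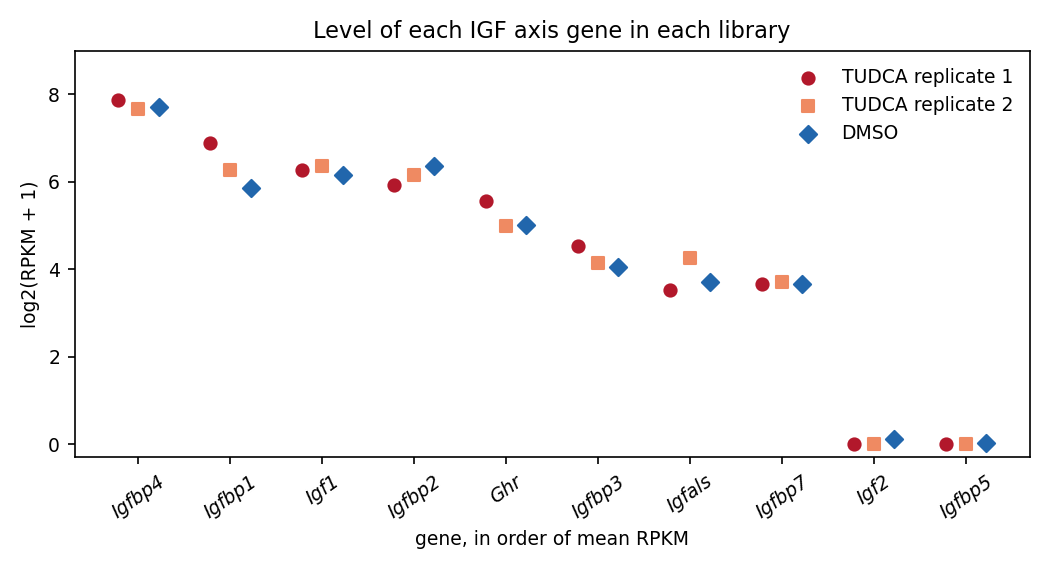
Level of each of the 10 genes in each library on the log2(RPKM + 1) scale, with TUDCA replicate 1 as circles, TUDCA replicate 2 as squares and DMSO as diamonds, each symbol being 1 library. Igfbp4 was the highest in every library, and Igf2 and Igfbp5 lay at or near 0 in all of them.

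The growth hormone receptor differed between the TUDCA libraries more than it differed from DMSO. Ghr had 46.4 and 30.8 RPKM with TUDCA and 31.2 RPKM with DMSO. TUDCA replicate 1 alone was high, replicate 2 lay just under DMSO, and the groups overlapped (log2 fold change 0.27 ± 0.23, limma adjusted p = 0.802). The gap between the TUDCA libraries was 0.58 on the log2(RPKM + 1) scale, wider than for 94.8% of the 11300 genes tested, whose median gap was 0.20. Counting error was smaller than that gap, since the 95% Poisson interval was 43.1 to 49.9 RPKM in TUDCA replicate 1 and 28.2 to 33.5 RPKM in replicate 2. Intervals here are exact, rest on the smallest whole reads and cover counting error only.

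Igfals, which encodes the liver-made subunit that holds IGF and IGFBP3 in the ternary complex, moved in opposite directions in the TUDCA libraries. It had 10.4 and 18.3 RPKM with TUDCA and 12.0 RPKM with DMSO, so DMSO lay between them (log2 fold change 0.19 ± 0.27, limma adjusted p = 0.915). Its gap between the TUDCA libraries, 0.75 on the log2(RPKM + 1) scale, was wider than for 97.9% of genes tested. Ghr was high in the library where Igfals was low. The Poisson intervals of Igfals did not overlap, at 9.17 to 11.9 RPKM in TUDCA replicate 1 and 16.6 to 20.04 RPKM in replicate 2.

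Igfbp1 rose with TUDCA, unevenly in the 2 libraries. It had 117.8 and 75.8 RPKM with TUDCA and 57.5 RPKM with DMSO. These values rest on 1753 and 1223 reads with TUDCA and 944 reads with DMSO. Both TUDCA libraries were above DMSO, as in 40.5% of all genes tested, with replicate 1 at 2.05 times and replicate 2 at 1.32 times its level. The mean with TUDCA was 96.8 ± 29.7 RPKM (SD, n = 2), and the log2 fold change was 0.71 ± 0.22 (limma adjusted p = 0.0403, unadjusted p = 0.00100). Across all genes, 2.65% of the 11300 tested were called, 1.77% higher and 0.876% lower, and Igfbp1 ranked 374th from the highest log2 fold change. The exon length annotated for Igfbp1 in GENCODE M21, 1525 bases, is the length that gives its smallest whole reads. For Igf1, Igf2, Igfbp4 and Ghr the annotated exons were over 2 times the length that does so, so their read numbers may be multiples of the smallest ones and their counting error smaller.

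The TUDCA libraries also differed from each other in Igfbp1. Replicate 1 differed from DMSO by 1.02 and replicate 2 by 0.39 on the log2(RPKM + 1) scale, while the libraries differed from each other by 0.63, more than in 96.1% of genes tested. The limma error is pooled over genes of similar level and may be too small for a gene with such a gap. The call was lost without the filter on low genes (adjusted p = 0.661), with a filter of 0.3 RPKM (0.529), without the variance trend (0.221), with median centring (0.217), with quantile normalization (0.0843) and with voom on whole reads (0.0684). It held with a pseudocount of 0.1, a filter of 5 RPKM, TPM and robust estimation, with adjusted p between 0.0257 and 0.0447. A log2 difference from DMSO of 1 or more was reached by Igfbp1 alone of the 8 genes tested in TUDCA replicate 1, against 2.51% of all genes, and by none of the 8 in replicate 2, against 1.66%. None of the 8 therefore passed a rule of size that asks for it in both libraries, against 1.05% of all genes.

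**Figure D2:**
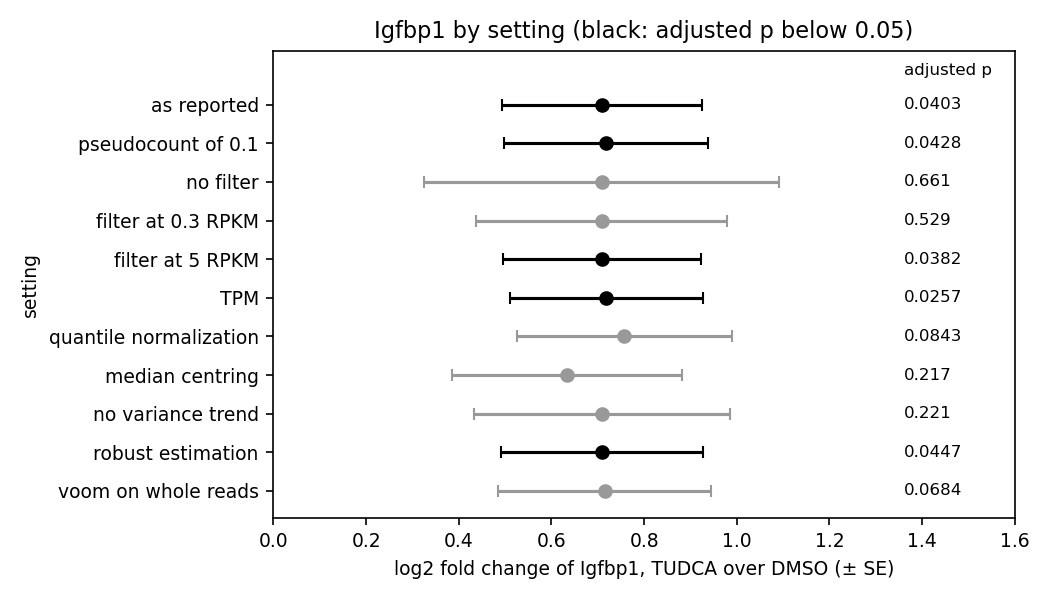
Log2 fold change of Igfbp1, TUDCA over DMSO, with its SE, under the fit as reported and 10 alternatives, and the adjusted p of each at the right. The estimate stayed between 0.63 and 0.76, while the adjusted p lay below 0.05 (black) in 4 alternatives and above it (grey) in 6.

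Igfbp2, a binding protein that hepatocytes also make, leaned the opposite way. It had 60.2 and 70.5 RPKM with TUDCA and 81.9 RPKM with DMSO. Both TUDCA libraries were below DMSO and the groups did not overlap, as in 30.4% of all genes tested. limma did not call Igfbp2 (log2 fold change -0.33 ± 0.22, adjusted p = 0.673). The ratio of Igfbp1 to Igfbp2 in RPKM, which does not depend on the scaling of a library, was 1.96 and 1.08 with TUDCA and 0.701 with DMSO. Igfbp1 was thus the lower of this pair with DMSO and the higher with TUDCA. In TUDCA replicate 2 their 95% Poisson intervals overlapped, at 71.6 to 80.2 RPKM for Igfbp1 and 65.8 to 75.5 RPKM for Igfbp2. No test was run on the ratio, as DMSO is 1 library.

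Igfbp4, a binding protein that mostly holds IGFs away from their receptor, was the most abundant of the 10 genes. It had 233.4 and 201.4 RPKM with TUDCA and 208.9 RPKM with DMSO, which lay between them (log2 fold change 0.05 ± 0.20, limma adjusted p = 0.981). Igfbp7, which binds IGFs weakly and is known as a product of vascular cells, was the steadiest. It had 11.6 and 12.1 RPKM with TUDCA and 11.6 RPKM with DMSO (log2 fold change 0.02 ± 0.27, limma adjusted p = 0.995). For both genes the sign of the fold change depended on scaling: it was -0.02 for Igfbp4 with median centring, and -0.05 and -0.06 for Igfbp7 with median centring and quantile normalization. Annotated exons of Polr2b, on the opposite strand, overlap those of Igfbp7 by 85 bases.

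Igfbp3, the main carrier of IGFs in blood, which non-parenchymal cells make in rodent liver, had 21.99 and 16.7 RPKM with TUDCA and 15.6 RPKM with DMSO. Replicate 1 stood above the other libraries, and replicate 2 exceeded DMSO by 0.09 on the log2(RPKM + 1) scale. Its log2 fold change of 0.28 ± 0.26 did not pass (limma adjusted p = 0.812). Endothelial and Kupffer cell markers, given above, summed to slightly less with TUDCA than with DMSO, and their part in the Igfbp3 level was not tested. Igfbp5, a binding protein of mesenchymal cells, was listed at 0 in both TUDCA libraries and at 0.0180 RPKM, 1 read, in DMSO. The 3 reads that a count of 0 allows would be 0.0598 and 0.0551 RPKM with TUDCA, so a difference was not detectable.

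**Figure D3:**
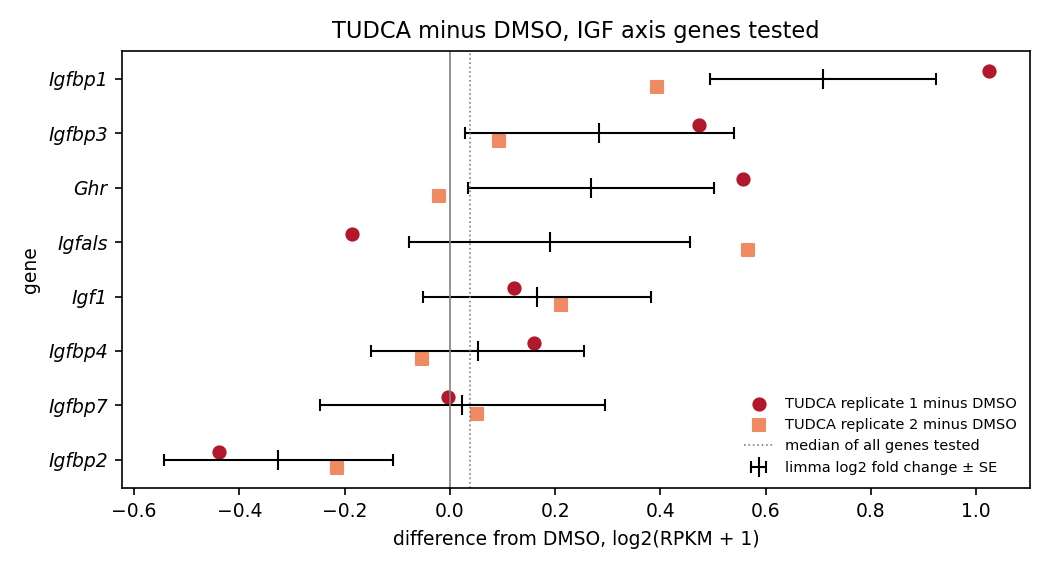
Difference from DMSO on the log2(RPKM + 1) scale for the 8 genes tested, with TUDCA replicate 1 as circles, TUDCA replicate 2 as squares, and the limma log2 fold change with its SE as black bars. Igfbp1 lay furthest right by its fold change and in TUDCA replicate 1, Igfals did so in replicate 2, Igfbp2 was the only gene with both libraries clearly below 0, and the libraries lay on opposite sides of 0 for Igfals, Ghr, Igfbp4 and Igfbp7.

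In all, 8 of the 10 genes passed the filter of a mean of 1 RPKM over the 3 libraries, and Igf2 and Igfbp5 did not. Of the 8, limma called 1 higher and 0 lower and left 7 uncalled, where 2.65% of all genes were called. An unadjusted p below 0.05 was reached by 1 of the 8 and by 10.8% of all genes tested. Both TUDCA libraries were above DMSO for Igf1, Igfbp1 and Igfbp3 and below it for Igfbp2, which is 3 and 1 of 8 genes against 40.5% and 30.4% of all genes tested. The other 4 had DMSO between the TUDCA libraries. The median log2 fold change of the 8 was 0.18, against 0.04 over all genes tested. For 5 of the 8 the gap between the TUDCA libraries exceeded the fold change. Each comparison used the same DMSO library, so an error in it would enter every value.

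The order of levels was steadier than the differences. Igfbp4 was highest in every library, and Ghr lay below Igfbp1, Igf1 and Igfbp2 and above Igfbp3 in every library. Igfbp1, Igf1 and Igfbp2 overlapped in range and changed places: Igfbp1 led them in TUDCA replicate 1, Igf1 in TUDCA replicate 2 and Igfbp2 in DMSO. The range of Igfals overlapped those of Igfbp3 and Igfbp7, while Igfbp3 lay above Igfbp7 in every library. Among 11300 genes tested, Igfbp4 ranked 531st by mean level, Igfbp1 1516th and Igfbp7 6420th.

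Transcripts of the 6 binding protein genes summed to 445.0 and 376.5 RPKM with TUDCA and 375.5 RPKM with DMSO. Igfbp4 made up 52.4 and 53.5% of the sum with TUDCA and 55.6% with DMSO. The share of Igfbp1 was 26.5 and 20.1% with TUDCA and 15.3% with DMSO, and that of Igfbp2 13.5 and 18.7% with TUDCA and 21.8% with DMSO. The mixture therefore differed mainly in these 2 genes, while Igfbp3 stayed between 4.14 and 4.94% of the sum.

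**Figure D4:**
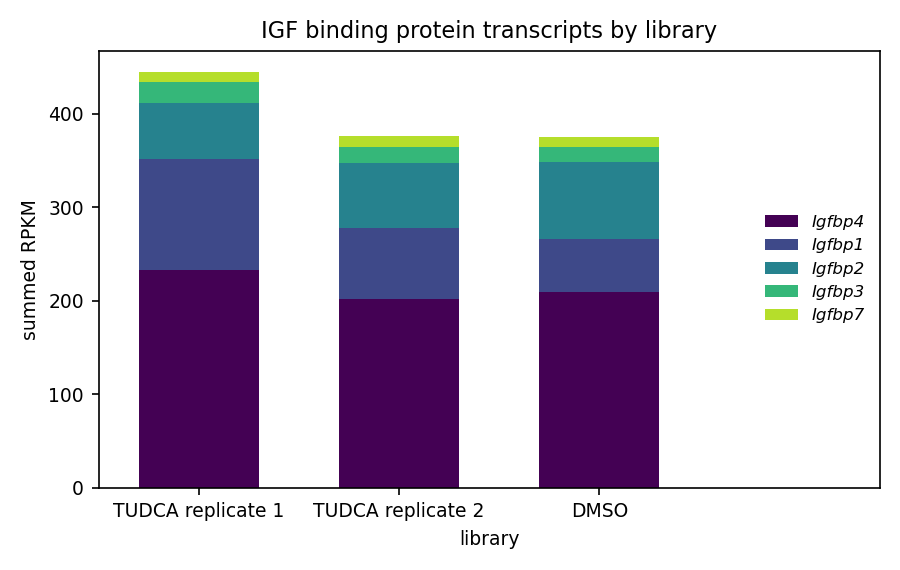
RPKM of the binding protein genes stacked by library, Igfbp4 at the base, then Igfbp1, Igfbp2, Igfbp3 and Igfbp7, with Igfbp5 too low to be drawn. The Igfbp1 band was widest in TUDCA replicate 1 and narrowest in DMSO, and the Igfbp2 band the reverse.

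Of the receptors that bind IGFs or insulin, Insr and Igf2r were well expressed and Igf1r was low. Igf1r, the signalling receptor, which hepatocytes are known to carry little of, had 0.436 and 0.497 RPKM with TUDCA and 0.442 RPKM with DMSO and failed the filter. Insr, the insulin receptor, had 29.3 and 23.0 RPKM with TUDCA and 24.98 RPKM with DMSO, and Igf2r, which takes up IGF2 and lysosomal enzymes, had 57.6 and 53.9 RPKM with TUDCA and 52.4 RPKM with DMSO. The third gene tested of the 11 in this list, the RNA-binding protein gene Igf2bp2, had 17.1 and 12.7 RPKM with TUDCA and 19.0 RPKM with DMSO. None of these 3 was called by limma or voom, where limma called 2.65% of all genes. None had an unadjusted p below 0.05 by limma, against 10.8% of all genes. Igfbp6, the binding protein that prefers IGF2, had at most 4 reads in any library.

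Genes of growth hormone signalling were expressed, and none was called. Stat5b had 24.4 and 23.1 RPKM with TUDCA and 22.5 RPKM with DMSO. Of 18 genes tested among 20 in the list, limma called 0, against 2.65% of all genes, and voom called 0. By limma 3 had an unadjusted p below 0.05, Cish and Ptpn6 among them, against 10.8% of all genes. The feedback inhibitors Socs2 and Cish, both STAT5 targets, leaned apart. Socs2 had 13.4 and 11.2 RPKM with TUDCA and 9.41 RPKM with DMSO (adjusted p = 0.761), and Cish had 7.71 and 10.4 RPKM with TUDCA and 13.8 RPKM with DMSO (adjusted p = 0.399). Jak2 had 5.75 and 4.06 RPKM with TUDCA and 2.90 RPKM with DMSO (adjusted p = 0.473). Among 20 liver genes that respond to growth hormone and STAT5B, a list that holds Igf1, Igfals, Socs2 and Cish, 14 were tested. limma called 0 of them, against 2.65% of all genes, and voom called 0. An unadjusted p below 0.05 by limma was reached by 2 (Cish and Mup20), against 10.8% of all genes. The median log2 fold change of the 14 was 0.14.

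None of the proteases that free IGFs by cutting binding proteins was called. Of 16 genes of proteases and their regulators, 8 were tested and limma called 0, against 2.65% of all genes, and voom called 0. None had an unadjusted p below 0.05 by limma, against 10.8% of all genes. Pappa, the protease of IGFBP4, was at most at 0.0185 RPKM in any library, and its inhibitors Stc1 and Stc2 were below 0.1 RPKM. The serine protease Htra1 had 3.52 and 3.10 RPKM with TUDCA and 1.90 RPKM with DMSO (adjusted p = 0.517), and the membrane metalloprotease Mmp14 had 75.3 and 73.2 RPKM with TUDCA and 93.4 RPKM with DMSO (adjusted p = 0.664).

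Pck1 and G6pc, enzyme genes that insulin represses as it does Igfbp1, were called higher too, while Pdk4, another such enzyme gene, had a log2 fold change of 0.08 (limma adjusted p = 0.979). In a list of 12 liver genes that depend on FOXO1 and are repressed by insulin, 11 were tested, and limma called 3 higher (Igfbp1, Pck1 and G6pc), 0 lower and 8 not, where 1.77% of all genes were called higher. voom called Pck1 and G6pc. The median log2 fold change was 0.33 against 0.04 over all genes tested, 0.46 in TUDCA replicate 1 and 0.20 in replicate 2. Pck1, the cytosolic gluconeogenic enzyme, had 5.03 and 10.6 RPKM with TUDCA and 0.354 RPKM with DMSO, and G6pc, glucose-6-phosphatase, had 5.99 and 2.55 RPKM with TUDCA and 0.500 RPKM with DMSO. Both passed the filter only through the TUDCA libraries and had 7 and 13 reads in DMSO as smallest whole numbers. The list also holds Igfbp1 itself and was chosen with earlier results of these data known, so its count and median are not a test. G6pc, like Igfbp1, was higher in TUDCA replicate 1, and Pck1 was higher in replicate 2. Klf15, a transcription factor of fasting, had 4.14 and 5.78 RPKM with TUDCA and 2.31 RPKM with DMSO and was not called (adjusted p = 0.135). The liver factor Hnf4a was fixed as a hepatocyte marker, and of the 9 such markers tested limma called it alone, as higher. It had 198.6 and 191.2 RPKM with TUDCA and 115.0 RPKM with DMSO (log2 fold change 0.76 ± 0.21, limma adjusted p = 0.0123). Its part in the level of Igfbp1 was not tested.

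Genes that insulin induces showed no called change. Of 11 such genes 9 were tested and limma called 0, against 2.65% of all genes, and voom called 0. By limma 2 had an unadjusted p below 0.05 (Scd1 and Elovl6), against 10.8% of all genes. The median log2 fold change of the 9 was -0.32, -0.19 in TUDCA replicate 1 and -0.42 in replicate 2. The fatty acid synthase gene Fasn had 33.5 and 40.9 RPKM with TUDCA and 49.1 RPKM with DMSO (adjusted p = 0.582), while the desaturase gene Scd1 leaned the other way, with 136.3 and 97.0 RPKM with TUDCA and 81.1 RPKM with DMSO (adjusted p = 0.274).

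**Figure D5:**
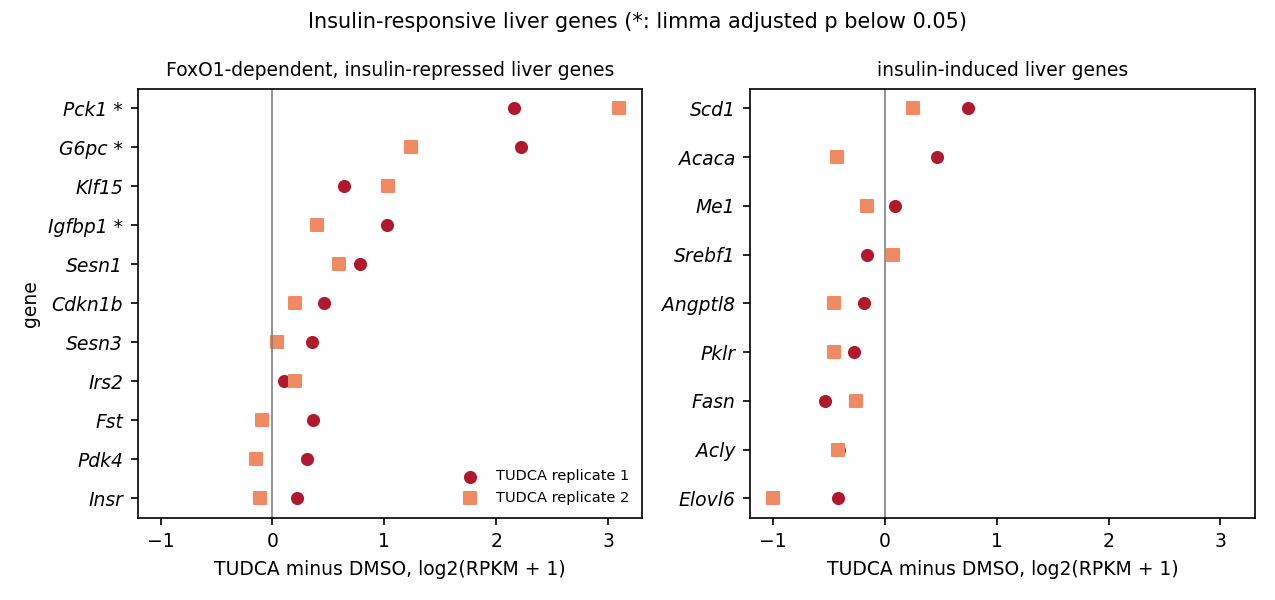
Difference from DMSO on the log2(RPKM + 1) scale for the tested genes that insulin represses through FOXO1 (left) and that insulin induces (right), with TUDCA replicate 1 as circles and replicate 2 as squares. Pck1, G6pc and Igfbp1, marked with asterisks, were called higher, and no gene on the right was called.

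Between receptor and FOXO1, 28 of 32 genes of insulin and IGF1 receptor signalling were tested. limma called 0, against 2.65% of all genes, and voom called 0. An unadjusted p below 0.05 by limma was found for 4 (Grb10, Grb14, Pik3r1 and Trib3), against 10.8% of all genes. The adaptors Grb10 and Grb14, both inhibitors of the insulin receptor, leaned apart. Grb10 had 13.0 and 12.1 RPKM with TUDCA and 19.4 RPKM with DMSO (adjusted p = 0.317), and Grb14 had 41.7 and 36.2 RPKM with TUDCA and 24.3 RPKM with DMSO (adjusted p = 0.129). Foxo1 itself had 5.33 and 5.69 RPKM with TUDCA and 4.78 RPKM with DMSO, and Irs2, a docking protein of the insulin receptor, 4.66 and 5.05 RPKM with TUDCA and 4.27 RPKM with DMSO, neither of them called (adjusted p = 0.939 and 0.949).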

How the data were processed

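Primary mouse hepatocytes were profiled by mRNA sequencing in 2 TUDCA libraries and 1 DMSO library. The authors deposited RPKM values, 1 table per library. Per the submitters' processing notes, CASAVA, TopHat2 2.0.7, Bowtie2 and HTSeq were used, without their roles; no source used here names the build, the annotation or the strand setting. Symbols came from GENCODE M21 by identifier (32897 of 37620 matched).

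Values were tested as log2(RPKM + 1), which understates changes of low genes, with limma 3.58.1 in R 4.3.3 (variance trend, Benjamini-Hochberg over the 11300 genes whose mean reached 1 RPKM, threshold 0.05). The TUDCA pair gave the only residual degree of freedom, DMSO, with its 1 library, was taken to vary by as much, and limma pooled the spread fully over genes of similar level. Each p-value sets the difference from DMSO against that pooled spread, and a gene's own gap between the TUDCA libraries does not set its error. The spread is only that between these libraries. Whole reads were recovered from the RPKM steps: whole reads in every library, within 1e-06 reads, were found for all 19146 genes above 0, and the smallest of them fed voom and the Poisson intervals, which cover counting error only.

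The alternatives were other pseudocounts, filters, scalings, variance models, voom, and leaving out either TUDCA library. The 10 genes, the 13 lists (190 of 191 entries matched) and the tests were chosen with earlier results of these data known. Named are the 10 genes, every called list gene, and uncalled list genes drawn from the 4 largest changes or from a fixed set of 10. Genes at or near 0 (Pappa, Stc1, Stc2, Igfbp6, Cftr, Upk1b), Ptpn6, Pik3r1, Pdk4 and Cd68 were named after their values were seen. Some genes that this rule covers are not reported.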

Additional observations from a re-analysis of the deposited data

How the results depend on the processing

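Over all genes the call count was 299. It fell to 0 without the filter, where 1696 genes had an unadjusted p below 0.05, and to 26 with a filter of 0.3 RPKM. Under the other alternatives it lay between 232 and 327. The count of IGF axis genes called, 1 as reported, was 0 without the filter, with a filter of 0.3 RPKM, with quantile normalization, with median centring, without the variance trend and with voom, since Igfbp1 lost its call there. The log2 fold change of Igfbp1 stayed positive in all 10 alternatives, and was 0.39 without TUDCA replicate 1 and 1.02 without replicate 2, with no test possible on 1 library a group. The sign turned for Igfbp4 with median centring (-0.0213) and for Igfbp7 with quantile normalization (-0.0614) and median centring (-0.0505). Leaving out a TUDCA library turned it too: without replicate 1 for Ghr (-0.02) and Igfbp4 (-0.05). Without replicate 2 it turned for Igfals (-0.19) and Igfbp7 (-0.0042). By the rule of size 119 genes passed, against 188 to 284 with either TUDCA library left out. The rule then asks for the difference in 1 library only, so that count could not fall. Median centring moved the median log2 fold change of all genes to -0.04, against 0.04 as reported. No paired analysis was possible because the DMSO library carries no replicate number. The single DMSO library and the 1 residual degree of freedom limit every call here.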

Other observations

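4 of the 6 binding protein genes lie in neighbouring pairs that face each other, and Igfbp4 and Igfbp7 lie apart. In RefSeq on GRCm38.p6, Igfbp1 and Igfbp3 lie on opposite strands with 0 annotated genes between them, and so do Igfbp2 and Igfbp5. Neighbours differed widely in level: Igfbp2 had 60.2 and 70.5 RPKM with TUDCA and 81.9 RPKM with DMSO, where Igfbp5 had 1 read in the 3 libraries together. Igfbp1 and Igfbp3 were both above DMSO in both TUDCA libraries, as were 40.5% of all genes tested. Both were higher in TUDCA replicate 1 than in replicate 2, but Igfbp3 was not called.

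Irs1, the docking protein that passes insulin and IGF1 signals to PI3-kinase, failed the filter of 1 RPKM and was not tested in the fit as reported. It had 0.953 and 0.796 RPKM with TUDCA and 0.233 RPKM with DMSO, from 85 and 77 reads with TUDCA and 23 with DMSO as smallest whole numbers. At a filter of 0.3 RPKM, which Irs1 passed only through the TUDCA libraries, limma did not call it (log2 fold change 0.60, adjusted p = 0.522, unadjusted p = 0.0320). That setting called 26 of 13384 genes and did not call Igfbp1 either. The log2(RPKM + 1) scale understates the change of a gene this low.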
